A study of Mus musculus with 2 samples.

Results

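The genes described here are 36 mouse genes of glucose use: 4 glucose transporters, the enzymes of glycolysis and lactate production, 2 carriers of lactate and 7 enzymes of the pentose phosphate pathway. They were found by mapping the Entrez Gene number of each row to the symbols of the list, a rule that uses no measured value, though the list was drawn up with earlier results of these data known. All 36 were among the 18090 genes with a read in at least 1 of the 2 RNA-seq libraries, and all 36 had reads in both. The libraries came from dendritic cells, which take up antigen and present it to T cells, grown from bone marrow of the C57BL/6 strain. Each group holds 1 library, so no test could be made, and every difference is one between these 2 libraries.

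The immature library came from marrow cells given 10 ng/ml of GM-CSF and 1 ng/ml of IL-4 over 6 days, cytokines used to obtain dendritic cells. The mature library was read as the one the protocol calls sample 2, which received lipopolysaccharide (LPS), a bacterial cell wall component, at 100 ng/ml for 24 h in the same cytokines. The labels leave unstated whether the immature culture ran for that extra time, how many animals gave marrow, and where the gates lay in the sort on CD86 and I-Ab that both had passed. The change with LPS, the extra day and the sort therefore cannot be told apart.

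Glycolysis breaks glucose down to pyruvate, and lactate dehydrogenase turns pyruvate into lactate, which leaves the cell through monocarboxylate transporters. The pentose phosphate pathway branches off after the first phosphorylation of glucose; its oxidative branch makes NADPH and its non-oxidative branch interconverts sugar phosphates and supplies ribose for nucleotides. Dendritic cells that sense LPS are known to raise glycolysis, an early phase of which depends on the kinases TBK1 and IKKε, and inducible nitric oxide synthase takes part in the later phase.

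The share of these genes that differed between the libraries was near that of all genes. Levels are given in RPKM, the reads of a gene scaled to its length and to the reads of the library. For the counts of genes that stood apart, higher or lower in the mature library means that (RPKM + 1) differed at least 2-fold, a scale that understates the change of genes with low values. On it 2 of the 36 genes were higher, against 9.05% of the 11547 genes that reached 1 RPKM in either library. Of the 36, 6 were lower, against 11.3% of all genes. The 8 that stood apart in either direction compare with 20.4% of all genes, and 28 lay within 2-fold. The higher genes were Pfkfb3 and Eno2, and the lower genes were Slc2a6, Fbp1, Aldoc, Slc16a1, Rpia and Tkt. All 36 passed the 1 RPKM minimum, Fbp1 through the immature and Eno2 through the mature library alone, which fixed the direction of these 2, though not the size of their difference.

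Small differences mostly had one direction. RPKM was lower in the mature library for 24 of the 36 genes, against 48.4% of all genes compared, and the median log2 fold was -0.33 against 0.026 over all genes. The lower values were the rule among abundant genes: of 16 with at least 100 RPKM in either library, 14 were lower in the mature one, where 59.9% of all 890 genes at that level were. The other 2 of the 16 were Slc2a1 and Slc16a3, the main carriers found here for glucose entry and lactate exit. Gapdh, 1.12-fold higher, and Pgk1, 1.2-fold lower, fell outside the 16 on levels that rest on a fraction of the gene, as described below. Together the 36 genes held 1.70% of the immature reads (128285 reads, 95% Wilson interval 1.69 to 1.71%) and 1.43% of the mature reads (115319 reads, 1.42 to 1.44%).

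**Figure D1:**
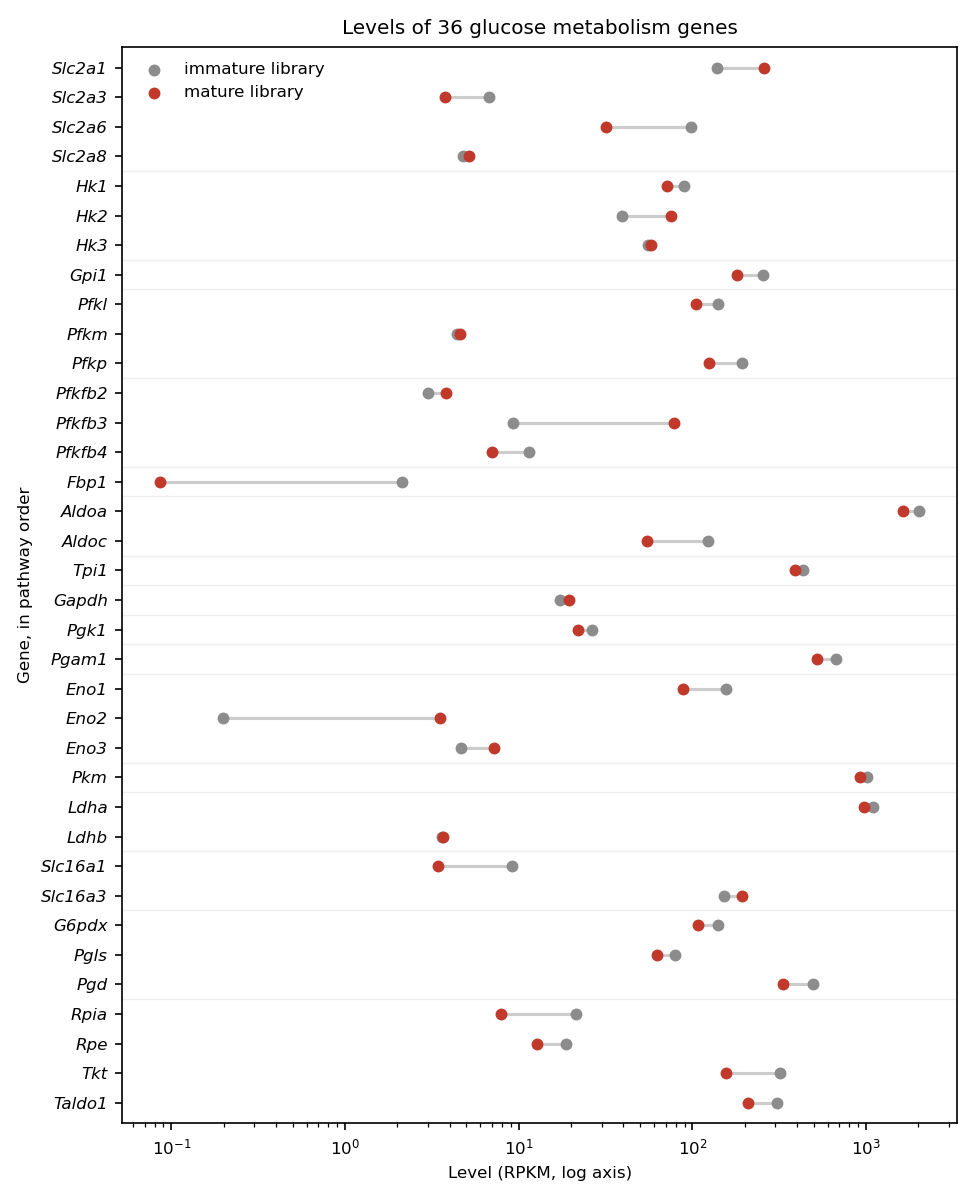
RPKM of the 36 genes in the immature and the mature library, on a log axis, grouped by role; each point is 1 library, with no replicate error to draw. Aldoa, Ldha and Pkm stand highest in both libraries, and Pfkfb3 and Eno2 show the widest gaps towards the mature library.

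The libraries held 7.56 M reads over 16573 genes and 8.07 M reads over 16646 genes, and 3 reads in a gene of 1 kb stand for 0.397 and 0.372 RPKM. All 10 markers of dendritic cells were present in both. In the mature library 4 were higher, 1 lower and 5 within 2-fold, with a median log2 fold of 0.72. The summed RPKM of the 10 went the other way, from 8135 in the immature to 6173 in the mature library. Cd74 was the largest part of that sum, at 5173 RPKM (immature) and 2910 RPKM (mature). The 10 include Cd86, H2-Ab1 and H2-Aa, whose products the cells were sorted on, so these are no independent markers here. The lower marker was Itgax, at 407 and 148 RPKM, the immature value first here and below, and the higher ones were Cd86 at 26.1 and 152, Ccr7 at 31.5 and 578, Flt3 at 0.722 and 3.28 and Zbtb46 at 4.51 and 13.2 RPKM. Flt3 passed the 1 RPKM minimum through the mature library alone, which fixed its direction. The makeup of the libraries differed in other respects. Of 10 neutrophil markers, 9 were lower in the mature library, with summed RPKM of 7256 and 1266. All 10 cell cycle genes were lower (561 and 53.1 summed RPKM), as were 5 of 10 macrophage and monocyte markers (1310 and 688) and 5 of 6 listed mast cell, basophil and eosinophil markers (199 and 15.5). Some of these lower genes passed the 1 RPKM minimum through the immature library alone, which fixed their direction. They were 1 neutrophil, 1 cell cycle, 1 macrophage or monocyte and 3 mast cell, basophil or eosinophil genes. Lymphoid markers summed to 4.32 and 6.72 RPKM, and erythroid markers, of which 4 of 10 were matched to a row, to 1.58 and 0.409 RPKM. In bulk RNA, fewer cells of a type and less RNA per cell cannot be told apart; the part of these other cells and of cell division in the values below was not tested.

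Promoters of the genes that stood apart, other than Eno2, Fbp1 and Aldoc, are shown first, with those of 2 family members they are compared with. Hypoxia-inducible factors, known activators of glycolytic genes, bind sites with the core ACGTG or GCGTG. Only ACGTG was searched. A window without a marked match can still hold GCGTG on either strand, as those of Slc2a6, Rpia and Tkt do. The 250 bases before each transcription start were taken from RefSeq, build GRCm38.p6, for 35 of the 36 genes; Slc2a3 had no entry. Capitals mark ACGTG on either strand, which includes every CACGTG, the E-box bound by Myc, USF and related factors. Each sequence is printed 5′ to 3′ on the strand of the gene. Pfkfb3 has 2 listed starts, at chr2:11553930-11554179 and chr2:11502091-11502340, both on the minus strand. The window of Slc2a1 lies at chr4:119108495-119108744 on the plus strand, Slc2a6 at chr2:27027999-27028248 on the minus strand, Slc16a1 at chr3:104638414-104638663 on the plus strand, Slc16a3 at chr11:120948817-120949066 on the plus strand, Rpia at chr6:70792176-70792425 on the minus strand and Tkt at chr14:30548881-30549130 on the plus strand.
Pfkfb3, first start: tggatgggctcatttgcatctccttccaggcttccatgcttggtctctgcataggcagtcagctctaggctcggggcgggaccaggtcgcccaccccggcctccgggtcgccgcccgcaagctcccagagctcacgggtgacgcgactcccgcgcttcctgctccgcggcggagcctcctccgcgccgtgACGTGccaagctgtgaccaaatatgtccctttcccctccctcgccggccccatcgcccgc
Pfkfb3, second start: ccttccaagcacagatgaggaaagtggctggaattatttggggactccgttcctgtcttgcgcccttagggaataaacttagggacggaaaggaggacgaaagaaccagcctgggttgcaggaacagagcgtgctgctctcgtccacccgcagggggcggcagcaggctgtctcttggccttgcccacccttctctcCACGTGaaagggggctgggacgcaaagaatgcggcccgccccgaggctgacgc
Slc2a1: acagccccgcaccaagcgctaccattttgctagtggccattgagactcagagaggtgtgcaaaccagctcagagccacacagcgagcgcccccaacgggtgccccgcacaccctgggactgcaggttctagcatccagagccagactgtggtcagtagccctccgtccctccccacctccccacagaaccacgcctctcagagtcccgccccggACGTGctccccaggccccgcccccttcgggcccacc
Slc2a6: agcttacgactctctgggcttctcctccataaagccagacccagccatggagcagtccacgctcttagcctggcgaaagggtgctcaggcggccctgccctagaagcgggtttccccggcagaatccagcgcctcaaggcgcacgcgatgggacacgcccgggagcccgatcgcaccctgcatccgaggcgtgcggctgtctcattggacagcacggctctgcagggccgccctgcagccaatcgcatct
Slc16a1: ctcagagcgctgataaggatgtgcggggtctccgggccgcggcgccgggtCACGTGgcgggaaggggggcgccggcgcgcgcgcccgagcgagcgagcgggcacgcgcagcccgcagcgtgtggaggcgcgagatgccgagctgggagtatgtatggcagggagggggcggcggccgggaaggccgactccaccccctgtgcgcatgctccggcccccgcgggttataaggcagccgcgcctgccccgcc
Slc16a3: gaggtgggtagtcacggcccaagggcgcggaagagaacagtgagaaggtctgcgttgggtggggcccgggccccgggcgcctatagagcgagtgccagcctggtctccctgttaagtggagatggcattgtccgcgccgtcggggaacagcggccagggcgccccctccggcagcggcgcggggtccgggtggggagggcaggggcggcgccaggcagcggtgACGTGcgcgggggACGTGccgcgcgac
Rpia: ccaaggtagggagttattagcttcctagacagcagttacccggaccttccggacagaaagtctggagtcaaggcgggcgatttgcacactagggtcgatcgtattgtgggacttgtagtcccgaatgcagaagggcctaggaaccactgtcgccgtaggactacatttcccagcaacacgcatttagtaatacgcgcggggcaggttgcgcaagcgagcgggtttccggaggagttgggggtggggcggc
Tkt: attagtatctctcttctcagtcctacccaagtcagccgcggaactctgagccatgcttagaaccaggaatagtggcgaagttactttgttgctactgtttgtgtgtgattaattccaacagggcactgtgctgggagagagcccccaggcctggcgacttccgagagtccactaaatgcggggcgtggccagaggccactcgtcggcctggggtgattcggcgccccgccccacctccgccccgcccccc

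Both Pfkfb3 promoters held ACGTG, 60 bases before the first start and, within a CACGTG, 53 bases before the second. Slc2a1 held 1 match 36 bases before its start, and Slc16a3 held 2, at 27 and 14 bases. The lower gene Slc16a1 held a CACGTG as well, 200 bases before its start, whereas the windows of Slc2a6, Rpia and Tkt held no match. No match was found in those of Eno2, Fbp1 and Aldoc either, which are not printed. Over all 35 genes, 13 (37.1%) held ACGTG: Slc2a1, Hk2, Hk3, Pfkm, Pfkfb2, Pfkfb3, Aldoa, Pgk1, Pgam1, Pkm, Ldha, Slc16a1 and Slc16a3. The letters were present in 18.5% of 27025 genes. Counted by promoter, 17 of the 50 promoters of these genes held them, against 16.6% of 32851 promoters of the same length. Overlapping promoters of Aldoa share a match. CACGTG was present for 5 of the 35 (14.3%), Pfkm, Pfkfb2, Pfkfb3, Ldha and Slc16a1, and for 6.86% of all genes. The 35 genes had 50 listed promoters, more per gene than all genes had. The promoters of these genes were richer in G and C, with a median of 58.8% against 52.4% over all promoters, and none of the 7 pentose phosphate genes held ACGTG. A match is a run of letters and no measured site, and its absence says only that these letters are not in the window.

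The 4 glucose transporter genes had a higher summed RPKM in the mature library, with a different makeup. Slc2a1 (Entrez Gene 20525) encodes GLUT1, the widespread transporter of glucose across the plasma membrane. It stood at 138 RPKM (immature) and 257 RPKM (mature), from 2677 and 5333 reads, 1.87-fold higher. The 95% counting interval of that ratio was 1.78 to 1.96; intervals beside folds are of this kind throughout, exact, and cover counting error only. Slc2a6 (227659) encodes GLUT6, a transporter found in membranes inside the cell. It stood at 97.9 RPKM (immature) and 32 RPKM (mature), from 1582 and 551 reads, 3.06-fold lower (2.78 to 3.38). The neighbouring pair in level thus moved apart: Slc2a1 was 1.40 times Slc2a6 in the immature and 8.03 times in the mature library.

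Slc2a3, which encodes the high-affinity transporter GLUT3, stood at 6.76 and 3.74 RPKM, 1.81-fold lower (1.43 to 2.28). Slc2a8, which encodes GLUT8, stood at 4.76 and 5.17 RPKM, a ratio whose interval spans no difference (0.789 to 1.5). As a share of the summed RPKM of the 4 transporters, Slc2a1 held 55.7% (54.2 to 57.2%) of the immature and 86.3% (85.3 to 87.2%) of the mature level, and Slc2a6 39.6% and 10.7%. The sums were 247 and 298 RPKM.

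Hexokinases, which phosphorylate glucose and so keep it in the cell, differed in makeup between the libraries, with Hk2 higher beside Hk1. Hk2 (15277), the hexokinase known to be inducible and bound to mitochondria, stood at 39.3 RPKM (immature) and 75 RPKM (mature), from 1642 and 3345 reads, 1.91-fold higher (1.80 to 2.03). Hk1, the widespread form, stood at 89.3 and 71.2 RPKM, 1.25-fold lower (1.19 to 1.32). Hk3, a form found in myeloid cells, stood at 55.4 and 57.9 RPKM, with an interval of 0.970 to 1.13 for its ratio. Hk1 was the highest of the 3 in the immature library with 48.5% of their summed RPKM, while in the mature library Hk2 held 36.7% (35.7 to 37.8%) and Hk1 34.9% (33.8 to 36%), shares whose intervals overlap. Per covered length, Hk1 led in the mature library too, with 36.6% against 35.7% for Hk2. The sums were 184 and 204 RPKM, and neither Hk2 nor any other hexokinase passed 2-fold.

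The next steps carried lower values for the enzymes themselves. Gpi1, which encodes glucose phosphate isomerase, stood at 254 and 180.0 RPKM, 1.41-fold lower (1.35 to 1.47). Phosphofructokinase, the committed step of glycolysis, came mainly from Pfkp, the platelet form, at 192 and 125 RPKM, 1.53-fold lower (1.47 to 1.60), and Pfkl, the liver form, at 139 and 105 RPKM, 1.32-fold lower (1.26 to 1.39). Pfkm, the muscle form, stood at 4.39 and 4.58 RPKM, with an interval of 0.785 to 1.39. The 3 genes summed to 336 and 235 RPKM, and Pfkp held 57.1% and 53.2% of those sums.

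The highest log2 fold of the 36 genes was that of an enzyme that makes the activator of phosphofructokinase. PFKFB enzymes make and break down fructose bisphosphate of the 2,6 form, a strong activator of phosphofructokinase. Pfkfb3 (170768), the isoform in which the kinase activity far exceeds the phosphatase, stood at 9.22 RPKM (immature) and 78.7 RPKM (mature), from 363 and 3307 reads, 8.53-fold higher (7.66 to 9.54). On the log2 scale this was 2.96, and 51 of the 11547 genes had a higher value. Its place among all genes by RPKM went from 6137th to 875th.

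Pfkfb4 stood at 11.5 and 7.01 RPKM, 1.64-fold lower (1.36 to 1.98), and Pfkfb2, the form known from heart, at 3.0 and 3.83 RPKM, 1.28-fold higher (1.04 to 1.57). Pfkfb3 thus passed from 38.8% (35.6 to 42.2%) of their summed RPKM, below Pfkfb4 at 48.5%, to 87.9% (86.7 to 89.0%). The sum itself went from 23.7 to 89.5 RPKM, 3.77-fold. Fbp1 (14121), which encodes the fructose bisphosphatase that runs the phosphofructokinase step backwards in gluconeogenesis, stood at 2.12 and 0.0864 RPKM, from 23 reads and 1 read. Its ratio was 24.6-fold lower with an interval from 3.99 to 1011, so its size is hardly fixed.

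**Figure D2:**
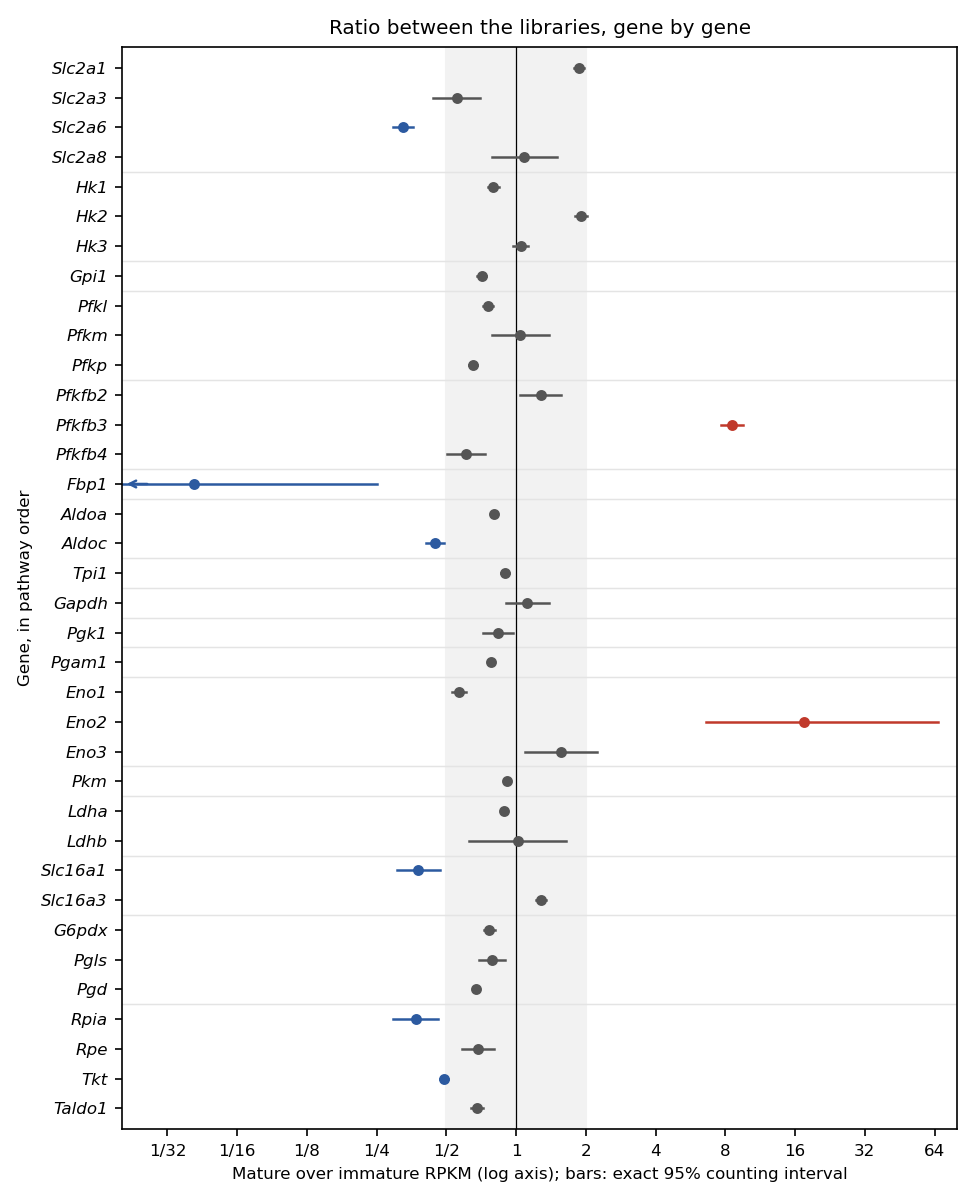
Ratio of mature to immature RPKM for each gene on a log axis, with the exact 95% counting interval as a bar, which covers counting error only; the grey band spans 2-fold either way, coloured points are genes at least 2-fold apart, and the arrow marks an interval that runs off the axis. Pfkfb3 (8.53) and Eno2 (17.6) lie right of the band with their whole intervals, and all 7 pentose phosphate genes lie left of 1.

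The later steps of glycolysis, from aldolase to pyruvate kinase, held the most abundant of the 36 genes. Of their 10 genes 2 stood apart by 2-fold, near the 20.4% of all genes. Aldoa, the main aldolase, stood at 2017 and 1620 RPKM, 1.24-fold lower (1.22 to 1.27), the 14th and 16th highest gene of each library. Aldoc, the aldolase known from brain, stood at 124 RPKM (immature) and 55.1 RPKM (mature), from 1591 and 757 reads, 2.24-fold lower (2.06 to 2.45). It held 5.77% (immature) and 3.29% (mature) of the summed aldolase RPKM, so the family's sum followed Aldoa. Tpi1, which interconverts the triose phosphates, stood at 431 and 387 RPKM, 1.11-fold lower (1.07 to 1.16). Gapdh, which oxidises glyceraldehyde phosphate, was listed at 17.3 and 19.4 RPKM from 164 and 196 reads, with a ratio interval of 0.905 to 1.39.

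Pgk1, the first step that yields ATP, was listed at 26.4 and 22 RPKM, 1.2-fold lower (1.03 to 1.39). Pgam1, the phosphoglycerate mutase, stood at 670 and 523 RPKM, 1.28-fold lower (1.24 to 1.32). Eno1, the widespread enolase, stood at 156 and 88.3 RPKM, 1.76-fold lower (1.64 to 1.89). The low enolases moved the other way. Eno2 (13807), the enolase known from neurons, stood at 0.199 RPKM (immature) and 3.50 RPKM (mature), from 4 and 75 reads, 17.6-fold higher (6.58 to 66.1). Eno3, the muscle enolase, stood at 4.65 and 7.24 RPKM from 53 and 88 reads, 1.56-fold higher (1.09 to 2.23). Eno2 held 0.124% (immature) and 3.53% (mature) of the enolase RPKM, and Eno1 97.0% and 89.2%.

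Pkm, pyruvate kinase, stood at 1005 and 918 RPKM, 1.10-fold lower (1.07 to 1.12); the file holds 1 count for the gene, so its M1 and M2 splice forms cannot be told apart. Ldha, which encodes the subunit of lactate dehydrogenase that favours lactate production, stood at 1098 and 976 RPKM, 1.13-fold lower (1.10 to 1.15). Ldhb, the other subunit, stood at 3.59 and 3.65 RPKM from 36 and 39 reads, with an interval of 0.628 to 1.64, and Ldha held 99.7% and 99.6% of their sum. Ldha and Pkm ranked 36th and 40th of all genes in the immature library and 29th and 33rd in the mature one, so their places did not fall with their small loss in RPKM.

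Of the lactate carriers, the dominant form was higher and the minor form lower in RPKM. Slc16a3 (80879), which encodes MCT4, the exporter of lactate from glycolytic cells, stood at 151 and 194 RPKM, 1.28-fold higher (1.22 to 1.35). Slc16a1 (20501), which encodes MCT1, a carrier of higher affinity that can also import lactate, stood at 9.08 RPKM (immature) and 3.44 RPKM (mature), from 304 and 123 reads, 2.64-fold lower (2.13 to 3.28). Slc16a3 was 16.7 times Slc16a1 in the immature and 56.3 times in the mature library. Bsg, which encodes the chaperone basigin that both carriers need to reach the membrane, stood at 345 and 433 RPKM, 1.25-fold higher (1.21 to 1.30).

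**Figure D3:**
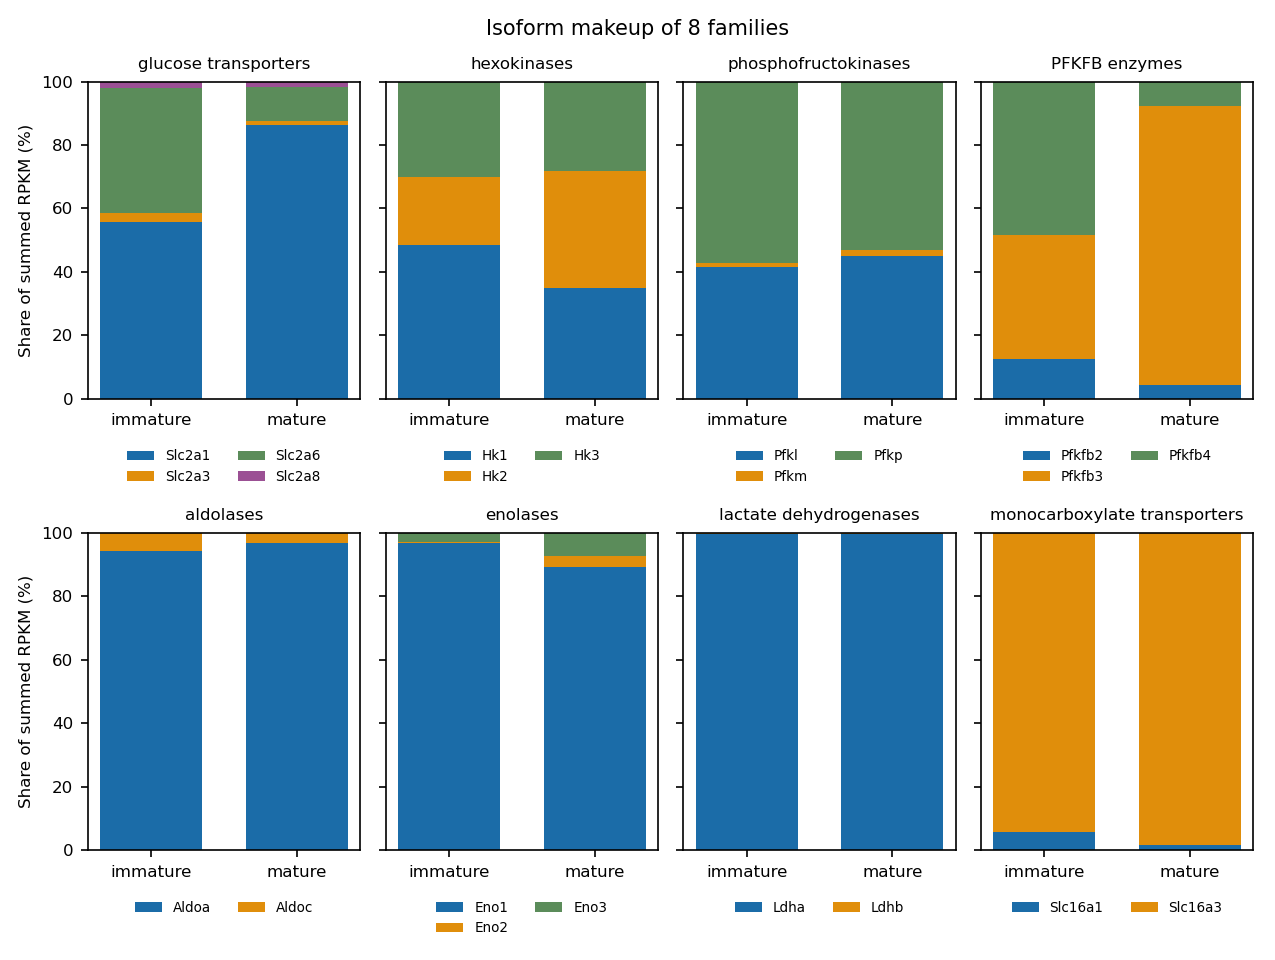
Share of each isoform in the summed RPKM of its family (percent) in the immature and mature library, for 8 families of 2 to 4 genes. Slc2a1 goes from 55.7 to 86.3% of the glucose transporters and Pfkfb3 from 38.8 to 87.9% of the PFKFB enzymes, while Ldha holds over 99% of its family in both.

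In the pentose phosphate pathway all 7 enzymes were lower in the mature library, between 1.27-fold and 2.72-fold, and the summed level went from 1385 to 889 RPKM, 1.56-fold. The median log2 fold was -0.56, and 2 of the 7, Rpia and Tkt, passed 2-fold, against 11.3% of all genes. Any lower RPKM was found for 48.4% of all genes, and for 59.9% of those with at least 100 RPKM in either library. In the oxidative branch, G6pdx, the glucose phosphate dehydrogenase that opens the pathway, stood at 141 and 108 RPKM, 1.31-fold lower (1.24 to 1.38). Pgls, the lactonase, stood at 79.7 and 62.8 RPKM, 1.27-fold lower (1.12 to 1.44). Pgd, the phosphogluconate dehydrogenase that makes the second NADPH, stood at 496 and 333 RPKM, 1.49-fold lower (1.44 to 1.54). This branch summed to 716 and 503 RPKM.

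The non-oxidative branch, with sums of 669 and 386 RPKM, held both genes past 2-fold. Rpia (19895), the isomerase that yields ribose phosphate, stood at 21.4 RPKM (immature) and 7.89 RPKM (mature), from 290 and 114 reads, 2.72-fold lower (2.18 to 3.40). Tkt (21881), transketolase, stood at 321 RPKM (immature) and 156 RPKM (mature), from 7785 and 4048 reads, 2.05-fold lower (1.98 to 2.13). Rpe, the ribulose phosphate epimerase, stood at 18.6 and 12.7 RPKM, 1.46-fold lower (1.25 to 1.72), and Taldo1, transaldolase, at 308 and 209 RPKM, 1.47-fold lower (1.39 to 1.56). Tkt and Taldo1 were near level in the immature library, at a ratio of 1.04, and Tkt was at 0.748 of Taldo1 in the mature one.

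Tkt stood within 2-fold when the libraries were scaled to a common sum of RPKM. The reads of the 7 made up 0.305% of the immature (0.301 to 0.309%) and 0.189% of the mature library (0.187 to 0.193%). The 29 genes of glycolysis and transport had a median log2 fold of -0.17, with 17 lower RPKM values in the mature library, and their share of reads went from 1.39% to 1.24%. Cell cycle genes, which were lower with summed RPKM of 561 and 53.1, moved with the pentose phosphate genes, as did the neutrophil markers at 7256 and 1266, and their part in the result was not tested.

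The levels of some of these genes rest on a fraction of the gene. Only uniquely placed reads were counted, per the file headers, and Gapdh had reads over 4.31% of its length in each library, where the median of the 200 genes nearest in reads per kilobase was 87.9% (immature) and 89.2% (mature). Pgk1 was covered over 12.2% and 11.6%, Eno1 over 19.9% and 19.8%, Gpi1 over 46.5% and 44.6%, and Tpi1 over 67.7% and 67.5%. These 5 of the 36 lay over 20 points below their neighbours in both libraries. When every 49-base window of each transcript was searched in the transcripts of 55386 other genes, an exact copy was found for 90.4% of the windows of Gapdh, 67.9% of Pgk1, 58.4% of Eno1, 20.2% of Gpi1 and 7.83% of Tpi1. Levels of these 5 against other genes, and the share of Eno1 among the enolases, are therefore uncertain, while the ratio between libraries compares the same windows.

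Shared windows did not always come with lost coverage. Pgam1 had exact copies for 41.5% of its windows and was covered over 96.6% of its length, and Pkm had them for 34.1% and was covered over 83.7%. For Ldhb the share was 27.7%, for Ldha 17.4%, for Aldoa 14.2% and for Taldo1 13.0%. G6pdx shared 7.95% of its windows, with G6pd2 as the gene most often matched, and each of the other genes shared under 1%, the 8 that stood apart by 2-fold among them. With up to 2 mismatches the shares were 1.43% for Pfkfb3 and 1.64% for Eno2, and they were larger for abundant genes: 58.4% for Aldoa, 67.6% for Pkm, 49.4% for Ldha and 41.8% for Taldo1.

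**Figure D4:**
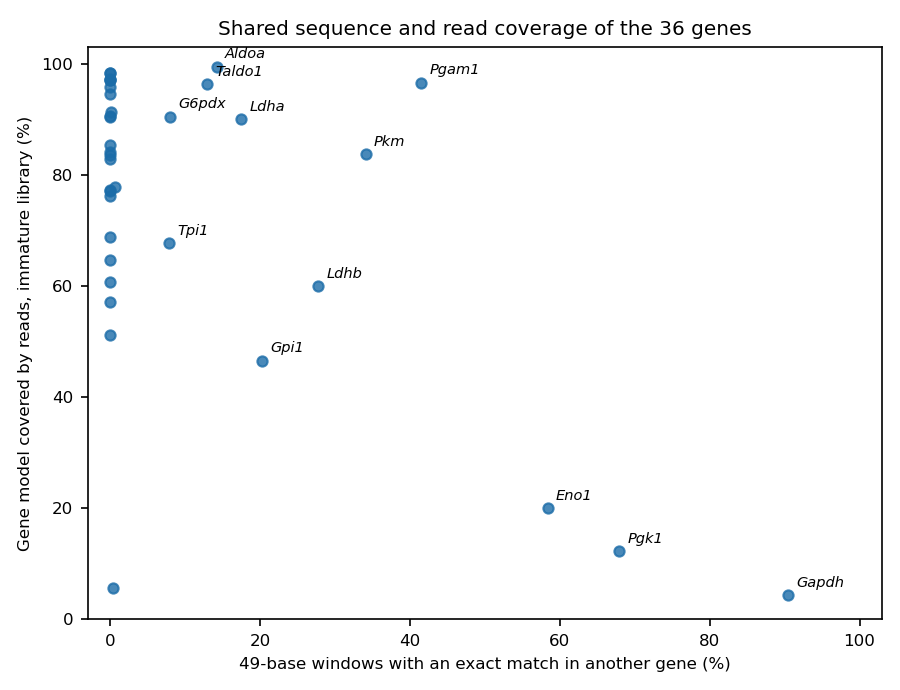
Percent of gene length covered by reads in the immature library for the 36 genes, against the percent of 49-base windows with an exact copy in another gene; each point is 1 gene. Gapdh, at 90.4% shared windows and 4.31% covered, Pgk1 and Eno1 form the lower right of the plot, and the low point at the left edge is Eno2 with 4 immature reads.

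Other enzymes and carriers of the pathway were sparse. Of 41 further genes, 29 had a read in either library and 17 reached 1 RPKM; 1 was higher, 4 were lower and 12 lay within 2-fold, with a median log2 fold of -0.29. Over all genes, 9.05% were higher and 11.3% lower. Shpk, the sedoheptulokinase, stood at 1.09 and 3.47 RPKM, 3.18-fold higher (1.97 to 5.30). Adpgk, a glucose kinase that uses ADP, stood at 41.7 and 14.4 RPKM, 2.90-fold lower (2.53 to 3.33). Slc16a6 and Slc16a7, further members of the monocarboxylate transporter family, stood at 25.3 and 11.4 RPKM, and at 1.53 and 0.205 RPKM. Slc16a7 passed the 1 RPKM minimum through the immature library alone, which fixed its direction. The fourth lower gene was Pck2, the mitochondrial carboxykinase, at 5.99 and 2.37 RPKM, named here after its value was seen.

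Of 21 regulators of the pathway, 5 were higher, 2 lower and 14 within 2-fold, with a median log2 fold of 0.37, where 9.05% of all genes were higher and 11.3% lower. Txnip, which restrains glucose uptake, stood at 101 and 250 RPKM, 2.47-fold higher (2.35 to 2.60). Pdk2, which restrains pyruvate dehydrogenase, stood at 3.02 and 8.21 RPKM. Myc, a transcription factor that drives glycolytic and cell cycle genes, stood at 25.7 and 2.27 RPKM, from 466 and 44 reads, 11.3-fold lower (8.29 to 15.8). Pdk3, another pyruvate dehydrogenase kinase, stood at 59.4 and 26.3 RPKM, 2.26-fold lower (2.01 to 2.54). Hif1a, the oxygen-regulated subunit of the hypoxia-inducible factor, stood at 112 and 106 RPKM, 1.05-fold lower (1.01 to 1.10), and was named after its value was seen.

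**Figure D5:**
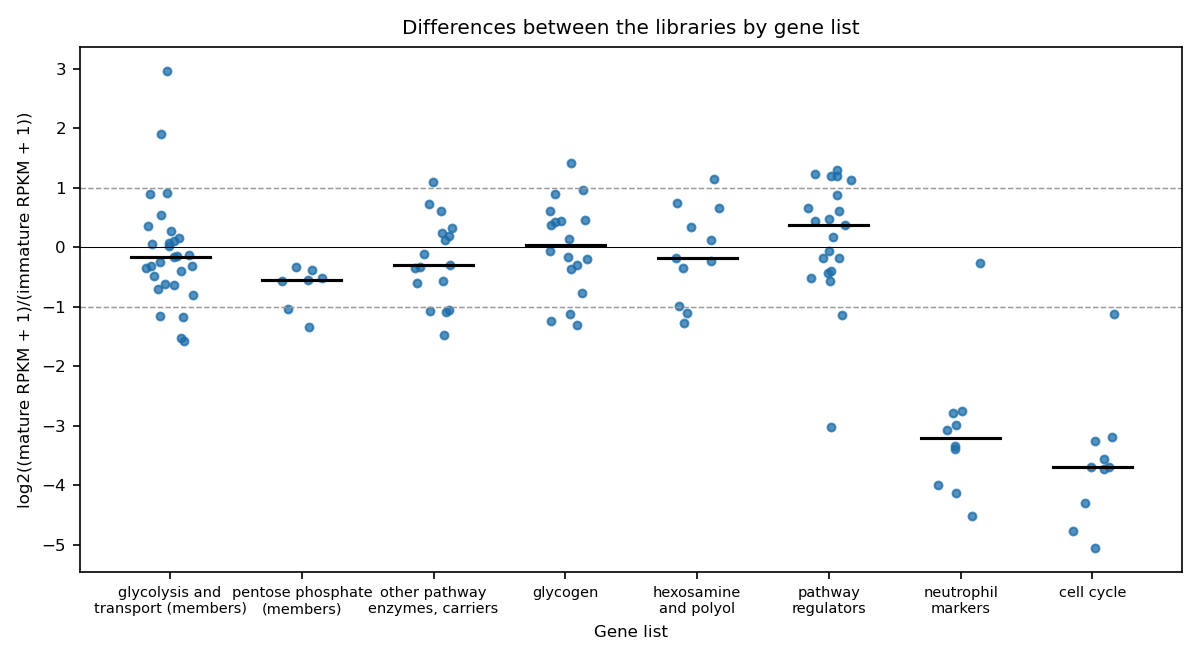
Log2 fold of (RPKM + 1), mature over immature, for the 36 genes in 2 groups, 4 lists of related genes, and the neutrophil and cell cycle lists; each point is 1 gene, horizontal bars are medians and dashed lines mark 2-fold. The medians are -0.17 for glycolysis and transport, -0.56 for the pentose phosphate genes and 0.37 for the regulators, while neutrophil and cell cycle genes lie far lower.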

How the data were processed

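Each deposited file gives, per the file headers, the count of uniquely placed reads per gene, gene length, coverage (the percent of the length under reads) and RPKM. The authors computed RPKM from the counts, and recomputing it returned every deposited value within a relative deviation of 1.07e-07. The genome build was mm8, per the submitters' processing notes, while for aligner, counting tool and strandedness the sources used here give nothing. Symbols came from the RefSeq gene table of GRCm38.p6 for 16220 of 18090 IDs, and the IDs without one held 0.538% and 0.758% of the reads.

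Log2 folds used a pseudocount of 1 RPKM, for genes with at least 1 RPKM in either library. The interval of an RPKM ratio is exact (95% Clopper-Pearson on the gene's reads), and isoform shares carry a 95% delta-method interval of the counts. These intervals and the Wilson intervals of read shares cover counting error only, since each group holds 1 library. They also treat reads as independent. Reads lacked molecular identifiers and may be copies of 1 molecule, in which case the intervals are too narrow. The read length of 49 bases was inferred from genes with a single read. Windows of that length were searched with bwa 0.7.19 in GENCODE vM21 transcripts, with up to 2 mismatches. The fold calls and the ratio intervals were tested on simulated counts with known changes and counting error only. That test cannot show how they fare with variation between cultures or with copied reads. The 36 genes and the other lists were chosen with earlier results of these data known. Every one of the 36 genes is named, and from each other list up to 3 higher and 3 lower genes at least 2-fold apart, by size; genes outside that rule are marked, and 1 gene within it is not reported here. Promoters are printed for genes at least 2-fold apart, except Eno2, Fbp1 and Aldoc, and for Slc2a1 and Slc16a3 among the genes compared with them. Those of Pfkfb4, Eno1, Aldoa and Taldo1, also compared, are not printed, and of these Aldoa alone held ACGTG. Alternatives were other pseudocounts and filters, edgeR and DESeq2 scaling factors, scaling without the 50 most abundant genes, a coverage minimum of 50% and, chosen after seeing the data, scaling to a common sum of RPKM.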

Additional observations from a re-analysis of the deposited data

How the results depend on the processing

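The number of the 36 genes at least 2-fold higher went from 2 to 1 with a pseudocount of 5 RPKM and likewise to 1 with a minimum of 5 RPKM, which 31 of the genes reached; Eno2 is the gene that drops out, being low in both libraries. The count of lower genes was 4 with that pseudocount, where Fbp1 and Slc16a1 drop out, 5 with that minimum, and 5 with a common sum of RPKM, chosen after seeing the data, where Tkt falls within 2-fold. It stayed at 6 under the other settings run. Over all genes, 469 were higher and 686 lower with the pseudocount of 5 RPKM, against 1045 and 1310 with 1 RPKM. The common sum gave 1181 higher and 1165 lower genes. The median log2 fold of the 36 genes lay between -0.37 (edgeR TMM factors) and -0.24 (common sum). Each scaling multiplies all ratios alike, by 0.974 to 1.06, too little to turn any pentose phosphate gene. TMM factors turned the direction of Ldhb alone, and no other scaling turned any of the 36. With a coverage minimum of 50%, the median of the glycogen genes became -0.065 and that of the hexosamine and polyol genes 0.35; fewer genes enter these, 15 and 7. Isoform shares moved beyond their counting interval in 34 of 44 cases when levels were taken per covered length and in 33 of 44 by raw reads. No paired analysis was possible because each group holds 1 library. Genes with few reads, such as Fbp1, Eno2 and Ldhb, are limited by depth, and no value here has a replicate error.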

Other observations

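Glycogen genes, which store and release glucose units inside the cell, had a median log2 fold of 0.039 over 18 genes, with 1 higher, 3 lower and 14 within 2-fold, where 9.05% of all genes were higher and 11.3% lower. Pygl, the liver glycogen phosphorylase that breaks glycogen down, stood at 228 RPKM (immature) and 91.1 RPKM (mature), 2.50-fold lower (2.38 to 2.64). Ppp1r3b, which targets a phosphatase to glycogen and so activates glycogen synthase, stood at 3.97 and 12.2 RPKM, 3.08-fold higher (2.52 to 3.78). The other lower genes were Pgm2l1, which makes glucose bisphosphate, at 2.17 and 0.344 RPKM, and Ppp1r3d, another targeting subunit, at 4.13 and 1.37 RPKM. Pgm2l1 passed the 1 RPKM minimum through the immature library alone, which fixed its direction. Just under 2-fold, and named after their values were seen, were Gys1, the glycogen synthase, at 60.3 and 113 RPKM and Gyg, the primer protein glycogenin, at 92.1 and 180.0 RPKM.

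Of 11 hexosamine and polyol genes, 1 was higher, 2 lower and 8 within 2-fold, against those same shares of all genes, with a median log2 fold of -0.19. The aldose reductase Akr1b3 stood at 11.9 and 4.33 RPKM, 2.74-fold lower (1.96 to 3.90). Its relative Akr1b8 stood at 6.18 and 14.9 RPKM, 2.41-fold higher (1.78 to 3.30). Reads covered 30.53% (immature) and 24.61% (mature) of the length of Akr1b3, against 82.52% and 90.95% for Akr1b8. The level of Akr1b3 against that of Akr1b8 is therefore uncertain. Khk, the kinase that phosphorylates fructose, stood at 11.5 and 4.77 RPKM, 2.41-fold lower (1.67 to 3.53).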
